A study of Mus musculus with 24 samples.

Results

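Primary astrocytes that had received 2 Gy X-rays were compared with primary astrocytes that had received 0.1 Gy, 24 h after exposure, without the mock-irradiated cells. The comparison took the 8 libraries whose labels give these doses at this time, out of 24 libraries in the series, and paired them by their replicate number. All genes were considered, of which 16002 out of 49315 listed passed the filter on low counts. Because both groups were irradiated, a value states how the higher dose differed from the lower dose, and neither group stands for unexposed cells.

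The cells were astrocytes of the brain cortex of wild type C57BL/6J mice, taken from late embryos and used at passage 1. The embryos of a pregnant mouse were pooled for an isolation, so a library is a pool of animals and every experiment used a fresh isolation. Cells were irradiated 3 days after seeding, with 0.1 Gy or 2 Gy delivered at 1 Gy/min, and 4 libraries were made for each dose. RNA was enriched for polyadenylated transcripts and sequenced in a single run. Same-numbered libraries of both doses deviated together from the means of their groups, so the comparison was made within the 4 pairs.

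Ionizing radiation breaks DNA, and a cell with unrepaired breaks delays replication and division. The transcription factor p53 takes part in this by raising *Cdkn1a*, whose product p21 inhibits cyclin-dependent kinases. Genes of DNA replication and mitosis are transcribed at set times of the cycle by E2F factors, by B-MYB and by FOXM1, and they are repressed by the DREAM complex in cells that have left the cycle. Astrocytes are support cells of neurons that divide slowly in culture, and in bulk RNA fewer cycling cells and less RNA of a gene per cycling cell cannot be told apart.

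The total count per library was from 19437584 to 37039966 after 0.1 Gy and from 14742855 to 25248674 after 2 Gy. It was lower after 2 Gy in all 4 pairs, with an exact two-sided permutation p of 0.1714 over the libraries and an exact sign-flip p of 0.125 within the pairs, the smallest that 4 pairs allow. Levels are library-scaled counts (CPM) after normalization by the trimmed mean of M values (TMM), and a log2 difference is the level after 2 Gy minus that after 0.1 Gy, as fitted by edgeR with the pair as a block, ± its standard error. In the 11 astrocyte markers that passed the filter, the summed level was from 2870.8 to 3941.0 CPM after 0.1 Gy and from 2872.1 to 3886.3 CPM after 2 Gy, while *Gjb6* (connexin 30), named after its values were seen, had at most 6 counts in any library. Microglial RNA was present as well, and its 14 markers summed to 435 and 396 CPM in the 2 libraries of replicate 2 and to between 2490.9 and 2988.3 CPM in the other 6.

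Promoters are shown as examples, for some of the genes at the lowest adjusted p and for *Hmgb2*, a chromatin protein gene picked for another kind of motif. They are the 120 bases before the RefSeq start in GRCm38.p6, 5′ to 3′ on the strand of the gene, with matches to 3 motifs in capitals. *Rrm2*, *Pclaf*, *E2f7*, *Uhrf1*, *Hmgb2* and *Ndc80* are at chr12:24708134-24708253, chr9:65890203-65890322, chr10:110745319-110745438, chr17:56303217-56303336, chr8:57511723-57511842 and, on the minus strand, chr17:71526858-71526977. For *Uhrf1*, which has 2 starts in the table, the upstream one is shown.
Rrm2: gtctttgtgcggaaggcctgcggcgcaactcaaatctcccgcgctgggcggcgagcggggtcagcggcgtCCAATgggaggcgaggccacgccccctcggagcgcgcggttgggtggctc
Pclaf: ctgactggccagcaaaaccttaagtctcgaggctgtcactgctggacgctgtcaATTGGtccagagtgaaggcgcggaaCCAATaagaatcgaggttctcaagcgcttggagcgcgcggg
E2f7: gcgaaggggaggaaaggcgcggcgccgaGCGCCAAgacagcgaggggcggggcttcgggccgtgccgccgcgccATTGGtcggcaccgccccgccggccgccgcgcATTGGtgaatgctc
Uhrf1: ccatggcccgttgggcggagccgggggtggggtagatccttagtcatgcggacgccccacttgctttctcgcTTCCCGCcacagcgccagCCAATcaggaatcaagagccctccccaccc
Hmgb2: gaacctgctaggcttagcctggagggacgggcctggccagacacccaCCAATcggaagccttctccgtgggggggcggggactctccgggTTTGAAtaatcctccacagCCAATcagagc
Ndc80: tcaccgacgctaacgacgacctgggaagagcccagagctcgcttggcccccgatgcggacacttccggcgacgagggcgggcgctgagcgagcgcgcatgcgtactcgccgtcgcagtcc

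The capitals mark CCAAT, the box bound by the factor NF-Y (ATTGG on the other strand), the E2F motif and the cell cycle homology region, each searched on both strands. The E2F motif was taken as TTCCCGC, as well as the spelling TTGGCGC, the spelling TTCGCGC and the spelling TTGCCGC, and the homology region as TTTGAA and, with another middle, TTCGAA. No match of a motif overlaps another in these windows. The CCAAT box began 50 bases before the start in *Rrm2* and 30 bases before it in *Uhrf1*, and *Pclaf*, *E2f7* and *Hmgb2* held 2 of them each. *Uhrf1* and *E2f7* held an E2F motif, *Hmgb2* held the cell cycle homology region, and none of these letters were found in the window of *Ndc80*. Over all 32851 promoters of that length in the table, 21.3% held a CCAAT box, 4.44% an E2F motif and 7.59% a cell cycle homology region. The windows shown were picked by hand, so their matches give no share to set beside these. The table holds promoters for 79.6% of the tested genes of the replication, cycle and mitosis lists and for 73.0% of all tested genes, under the 80% set for a comparison of shares, so the comparison between lists is void and was not made.

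No gene passed an adjusted p of 0.05 in the blocked quasi-likelihood fit of edgeR with Benjamini-Hochberg adjustment. The lowest adjusted p in edgeR was 0.0639 and was shared by 9 genes, all lower after 2 Gy and all members of replication, mitosis or repair lists. In that fit 43 genes had an adjusted p under 0.1. Lower after 2 Gy, and so in all 4 pairs, were 42 of them, and 39 belonged to those lists. The other gene, *Svop*, was higher. At an unadjusted p under 0.05 stood 790 genes or 4.94% of those tested, 416 lower (2.6%) and 374 higher (2.34%) after 2 Gy.

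The side of the threshold depended on the model. DESeq2's Wald test with the same block called 109 genes at that threshold, 104 of them lower after 2 Gy (0.65% of those tested) and 5 higher (0.0312%). A fit of edgeR on 16 libraries, which adds the same doses at 6 h, called 104 lower (0.609%) and 6 higher (0.0352%), and edgeR corrected for GC content and gene size called 98 lower (0.614%) and 6 higher (0.0376%). These tests share 84 calls, of which 82 were lower and 71 were in the cycle and repair lists. Limma voom with the block and edgeR without the block called 0 genes. Without replicate 3 the blocked edgeR fit called 161 genes and without replicate 4 it called 40, while it called 0 without replicate 1 or 2. DESeq2 with the block called 19, 10, 184 and 77 genes without replicates 1 to 4, and the fit with the GC correction called 0, 1, 522 and 72. The words "lower in DESeq2" stand for a call by DESeq2 with the block, and no gene named was called by the blocked edgeR fit.

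*Rrm2*, the small subunit of ribonucleotide reductase that makes deoxynucleotides, had the smallest p. Its level was 50.3, 98.2, 53.3 and 47.4 CPM in replicates 1 to 4 after 0.1 Gy and 29.1, 54.3, 27.8 and 26.8 CPM after 2 Gy. Replicate 2 was high at both doses, so the groups overlapped while each pair was lower after 2 Gy by 0.78 to 0.94 on the log2 scale. The fitted log2 difference was -0.85 ± 0.08 (edgeR adjusted p = 0.0639), and DESeq2 gave an adjusted p of 8.06e-09.

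*Pclaf*, which binds the replication clamp PCNA, was at 21.2, 31.3, 27.1 and 26.5 CPM after 0.1 Gy and at 10.8, 11.8, 14.0 and 13.9 CPM after 2 Gy. The groups did not overlap, the ratio of the means was 2.09, and the log2 difference was -1.07 ± 0.11. *Uhrf1*, which guides DNA methylation of new strands, was at 28.3, 38.9, 36.6 and 31.6 CPM against 15.3, 16.9, 19.5 and 20.5 CPM, again without overlap (-0.91 ± 0.11). *E2f7*, an E2F that represses cycle genes, was at 7.26, 11.9, 5.96 and 5.92 CPM against 2.99, 5.18, 2.58 and 3.39 CPM. Its highest value after 2 Gy was below its lowest after 0.1 Gy, with a log2 difference of -1.11 ± 0.14.

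*Ccna2* encodes cyclin A2, which drives S phase and entry into mitosis. It was at 30.0, 30.5, 24.8 and 29.1 CPM after 0.1 Gy and at 16.2, 17.8, 11.6 and 16.6 CPM after 2 Gy, with no overlap and a log2 difference of -0.89 ± 0.10.

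Further genes at the lowest adjusted p act in mitosis or mark dividing cells. *Ndc80*, a subunit of the outer kinetochore that holds microtubules, was at 10.6, 9.07, 8.99 and 10.2 CPM after 0.1 Gy and at 5.42, 4.62, 4.98 and 5.61 CPM after 2 Gy. *Melk* and *Pbk*, protein kinases of dividing cells, had means of 8.70 ± 0.446 and 20.6 ± 1.72 CPM after 0.1 Gy and of 4.19 ± 0.514 and 11.4 ± 1.39 CPM after 2 Gy (SD, n = 4). None of these groups overlapped. The 8 genes described had adjusted p values of at most 0.000204 in DESeq2, 0.00638 on 16 libraries and 0.0132 with the GC correction.

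**Figure D1:**
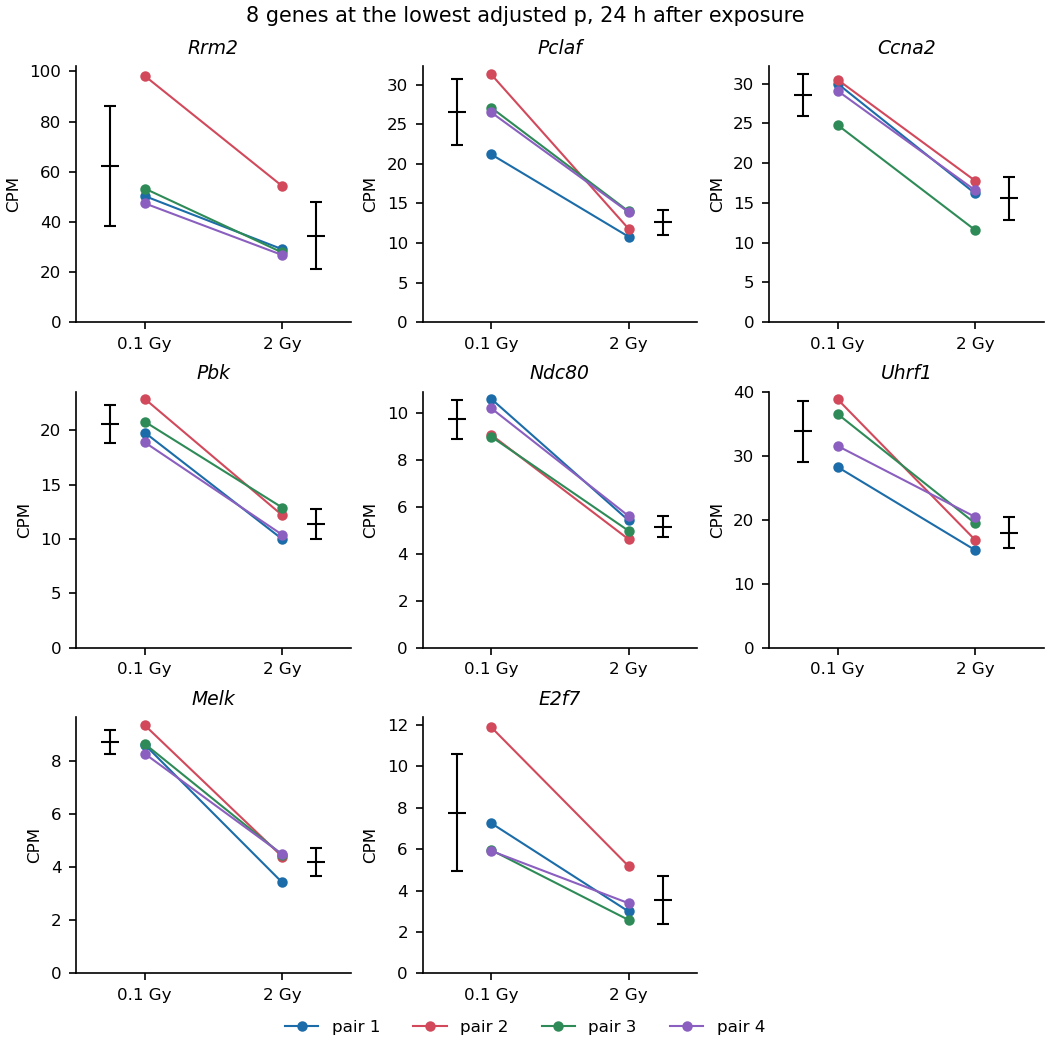
Level in CPM (y axis, from 0) after 0.1 Gy and 2 Gy of 8 genes at the lowest adjusted p, 24 h after exposure. Lines join the libraries of a pair and the black bars are mean ± SD of 4 libraries. All lines go down, and in *Rrm2* the 0.1 Gy libraries overlap the 2 Gy library of pair 2 at 54.3 CPM.

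Origin licensing loads the MCM helicase on DNA in G1, and of 20 members of the licensing and helicase list all were lower after 2 Gy. Of these, 17 were lower in all 4 pairs (6.39% of all tested genes), 18 had an unadjusted p under 0.05, 10 had groups that did not overlap (0.994% of all tested genes) and 9 were lower in DESeq2. The list median was -0.59 on the log2 scale, with -0.68, -0.74, -0.42 and -0.47 in pairs 1 to 4, beside a median of 0.00 over all tested genes. *Mcm2*, a helicase subunit, had levels of 32.4, 39.3, 40.4 and 35.7 CPM after 0.1 Gy and of 21.1, 20.6, 25.8 and 23.6 CPM after 2 Gy. Its groups did not overlap and its log2 difference was -0.70 ± 0.10.

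The subunits *Mcm4* and *Mcm6* had log2 differences of -0.55 ± 0.08 and -0.53 ± 0.11. *Mcm10*, which helps to activate the helicase, was at 8.48 ± 1.52 CPM after 0.1 Gy and at 4.31 ± 0.973 CPM after 2 Gy (SD, n = 4). *Cdc6*, which loads the helicase on origins, had a log2 difference of -1.02 ± 0.18, with pairs from -1.31 to -0.43. *Mcm2* and these genes were all lower in DESeq2.

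Among 28 genes of the replication fork, all were lower after 2 Gy, 23 of them in all 4 pairs, and 22 had an unadjusted p under 0.05. Their median was -0.43, 9 had groups without overlap, and 4 were lower in DESeq2. *Pcna*, the sliding clamp, was at 85.6, 75.2, 93.5 and 102 CPM after 0.1 Gy and at 62.5, 47.3, 86.7 and 73.5 CPM after 2 Gy. The 2 Gy library of replicate 3 lay within the range of the 0.1 Gy libraries, and with a log2 difference of -0.43 ± 0.10 *Pcna* did not pass DESeq2 (adjusted p = 0.107). *Clspn*, which couples the fork to the checkpoint kinase CHK1, had a larger log2 difference of -0.94 ± 0.15 and was lower in DESeq2.

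All 12 enzymes of deoxynucleotide supply were lower after 2 Gy, 8 in all 4 pairs and 7 at an unadjusted p under 0.05, with a median of -0.43. The spread of this list between pairs (SD 0.0630) was the narrowest of the replication, cycle, mitosis and repair lists. Besides *Rrm2*, *Tk1*, the thymidine kinase of S phase, was at 16.7, 17.2, 18.2 and 18.8 CPM after 0.1 Gy and at 9.12, 10.8, 14.1 and 9.90 CPM after 2 Gy. The groups did not overlap, and the log2 difference was -0.70 ± 0.12.

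Cyclins and their kinases did not all have the same sign. Of 15 members 12 were lower and 3 higher after 2 Gy, 10 were lower in all 4 pairs, and the median was -0.50. *Ccne2* (cyclin E2), *Ccna2* and *Ccnf* (cyclin F) had log2 differences of -0.85 ± 0.12, -0.89 ± 0.10 and -0.74 ± 0.11 and were lower in DESeq2. The D cyclins carry mitogen signals in G1, and *Ccnd1* and *Ccnd2* had values of the other sign, while *Ccnd3* had a log2 difference of -0.09, with pairs on both sides of 0. *Ccnd1* was at 1384 ± 248 CPM after 0.1 Gy and 1473 ± 282 CPM after 2 Gy (SD, n = 4, log2 difference 0.09 ± 0.09). *Ccnd2* had a log2 difference of 0.15 ± 0.09, and the edgeR fit gave unadjusted p values of 0.354 and 0.127 for these genes.

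The list of E2F, DREAM and pocket proteins had 16 of 19 members lower after 2 Gy, 10 of them in all 4 pairs, and a median of -0.24. *E2f8*, a close relative of *E2f7*, was at 15.1, 13.5, 12.4 and 13.7 CPM after 0.1 Gy and at 4.92, 5.04, 6.30 and 8.96 CPM after 2 Gy. No 2 Gy library reached the 0.1 Gy range (-1.13 ± 0.17), and pair 4 had the smallest difference. *Foxm1*, which drives mitotic genes, had a log2 difference of -0.71 ± 0.10 and no overlap. *Tfdp1*, the partner that E2F factors bind DNA with, differed by -0.24 ± 0.08 and was not lower in DESeq2.

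Of 8 CDK inhibitors 5 were lower and 3 higher. *Cdkn2c* (p18) was at 24.8, 30.6, 28.7 and 29 CPM after 0.1 Gy and at 21.5, 18.2, 18.3 and 19.4 CPM after 2 Gy, so that an inhibitor of the G1 kinases was lower by 0.55 ± 0.11 on the log2 scale, without overlap.

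**Figure D2:**
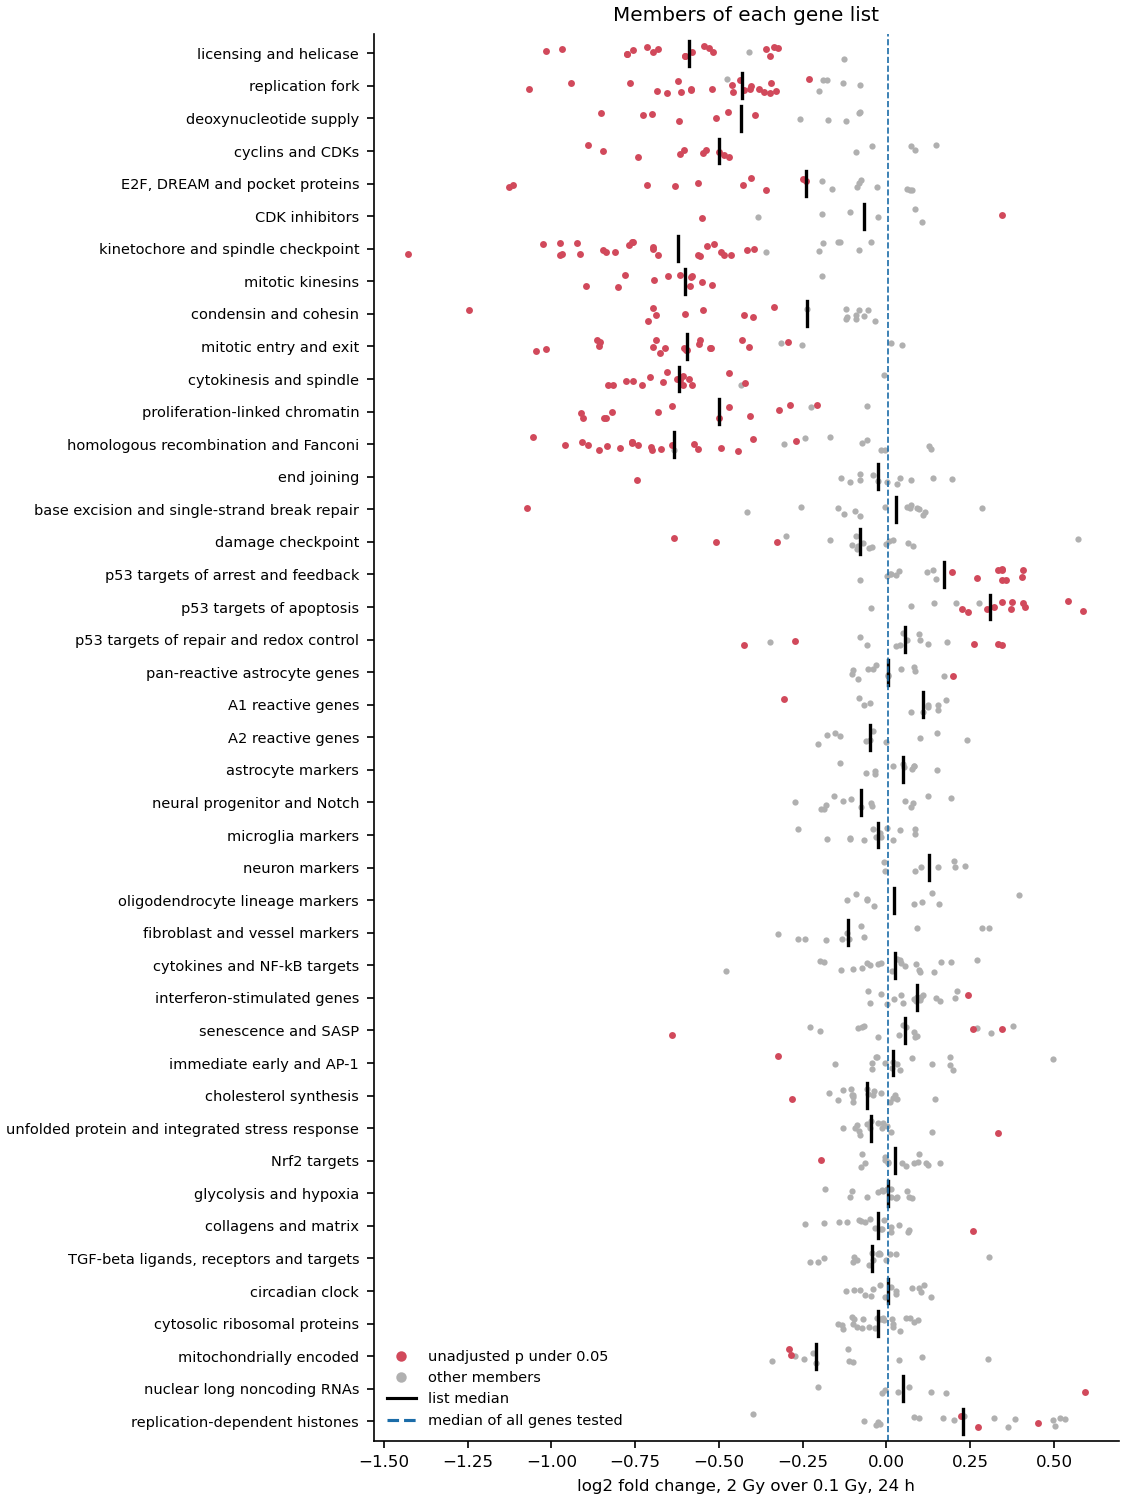
Log2 difference of 2 Gy over 0.1 Gy at 24 h (x axis) for the tested members of each gene list, red where the unadjusted p of the blocked edgeR fit was under 0.05. Black bars are list medians and the dashed line is the median of all tested genes. The replication, mitosis and recombination lists lie left of the line with medians down to -0.63, the p53 lists of arrest and apoptosis lie right of it, and the marker and stress lists are centred near it.

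The lists of mitosis had medians between -0.62 and -0.24. All 32 genes of the kinetochore and the spindle checkpoint were lower after 2 Gy, with 23 lower in all 4 pairs, 25 at an unadjusted p under 0.05 and 13 lower in DESeq2, and the median was -0.62. *Ttk*, the kinase that starts the spindle checkpoint, was at 7.37, 9.07, 8.10 and 6.85 CPM after 0.1 Gy and at 3.71, 4.95, 3.48 and 3.94 CPM after 2 Gy. *Mad2l1*, which holds back anaphase, was at 22.8 ± 0.957 CPM after 0.1 Gy and at 13.4 ± 1.91 CPM after 2 Gy (SD, n = 4). Both genes had groups that did not overlap and log2 differences of -0.97 ± 0.13 and -0.77 ± 0.11.

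*Ska1*, which tracks microtubule ends, had the lowest log2 difference of all tested genes, at -1.43 ± 0.22, on low levels of 2.08, 4.04, 3.01 and 2.77 CPM against 1.07, 1.31, 1.41 and 0.702 CPM. *Cenpe*, a kinetochore motor, was less uniform, with pairs at -0.75, -0.54, -0.93 and -0.03, and it did not pass DESeq2 (adjusted p = 0.062). The 12 mitotic kinesins were all lower, 11 of them in all 4 pairs, with a median of -0.60 and 7 calls in DESeq2. *Kif11*, the motor that separates the spindle poles, was at 29.5, 30.7, 18.2 and 21 CPM after 0.1 Gy and at 15.6, 17.3, 5.78 and 17.3 CPM after 2 Gy. Its 2 Gy library of replicate 3 was far below the other 3, and the groups did not overlap. *Kif22* and *Kif23*, motors of chromosome arms and of the midzone, differed by -0.65 ± 0.10 and -0.62 ± 0.10.

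Mitotic entry and exit regulators were lower in 21 of 23 cases, 19 in all 4 pairs, with a median of -0.60 and 12 calls in DESeq2. *Aurkb*, the kinase that corrects wrong attachments, was at 13.4, 14.4, 15.9 and 16.3 CPM after 0.1 Gy and at 5.63, 8.08, 9.73 and 9.78 CPM after 2 Gy. The groups stood apart, and the log2 difference was -0.86 ± 0.12. *Cdc20*, which activates the ligase of anaphase, overlapped between doses, with 27.6 CPM in the 2 Gy library of replicate 3 and 20.7 CPM in the 0.1 Gy library of replicate 1 (-0.52 ± 0.14). For *Cdc20*, DESeq2 gave an adjusted p of 0.111.

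The list of cytokinesis and spindle proteins had all 18 members lower after 2 Gy, 15 of them in all 4 pairs, 16 at an unadjusted p under 0.05 and 11 lower in DESeq2, with a median of -0.62. *Racgap1*, a part of centralspindlin, was tight within each dose. Its level was 44.0, 42.5, 48.7 and 43.6 CPM after 0.1 Gy and 28.4, 28.9, 31.2 and 28.9 CPM after 2 Gy, a log2 difference of -0.61 ± 0.08. *Tpx2*, which activates the kinase Aurora A, and *Anln*, an actin binder of the furrow, differed by -0.61 ± 0.09 and -0.62 ± 0.12. In *Anln* the doses overlapped, since its 2 Gy library of replicate 2 was at 38.5 CPM and its 0.1 Gy library of replicate 3 at 37.4 CPM.

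Condensin and cohesin genes, which shape and hold chromosomes, were split. All 19 were lower after 2 Gy, but only 9 in all 4 pairs, and the median was -0.24 with pair 4 at -0.00464. *Ncaph*, a condensin subunit, was at 18.3, 18.0, 18.3 and 19.0 CPM after 0.1 Gy and at 11, 11.7, 11.9 and 11 CPM after 2 Gy. *Esco2*, which acetylates cohesin in S phase, had a log2 difference of -1.25 ± 0.23. The cohesin ring subunit *Rad21*, which is used outside mitosis too, differed by -0.24 ± 0.14 with pair 4 at 0.11, and its 2 Gy library of replicate 3 was at 85.8 CPM beside 174 to 189 CPM in the other 3.

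The 15 chromatin genes linked to proliferation were all lower, 13 in all 4 pairs, with a median of -0.50 and 8 calls in DESeq2. *Top2a*, the topoisomerase that untangles chromosomes, was at 108, 95.3, 80.4 and 78.1 CPM after 0.1 Gy and at 52.9, 52.6, 36.4 and 65.9 CPM after 2 Gy. *Mki67*, which encodes Ki-67, was at 95.2, 68.2, 48.9 and 58.7 CPM against 32.7, 40.4, 21.1 and 52.2 CPM. *Mki67* overlapped between doses, with pairs from -1.54 to -0.17, while *Top2a* did not overlap (-0.82 ± 0.15). Both were lower in DESeq2, at adjusted p values of 0.000234 and 5.95e-05.

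Further members of that list were steadier across pairs. *Lmnb1* (lamin B1), whose loss is used as a sign of senescence, was at 33.2, 45.3, 35.3 and 30.5 CPM after 0.1 Gy and at 20.7, 28.8, 21.6 and 21.4 CPM after 2 Gy, with pairs from -0.71 to -0.51. *Hmgb2*, whose promoter holds the cell cycle homology region, differed by -0.68 ± 0.10 without overlap. *Dnmt1*, the DNA methyltransferase that *Uhrf1* recruits, differed by -0.32 ± 0.10 and did not pass DESeq2 (adjusted p = 0.545).

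Over the replication, cycle and mitosis lists joined, 203 of 211 tested members were lower after 2 Gy (48.6% of all tested genes were), 156 in all 4 pairs and 83 without overlap. A total of 158 had an unadjusted p under 0.05, 80 were lower in DESeq2, and the median was -0.53 with -0.56, -0.59, -0.51 and -0.35 in pairs 1 to 4. A list of 66 genes that the authors picked as lower after 2 Gy had 66 lower members here, 64 of them in all 4 pairs, with a median of -0.81. It was picked on libraries that include those of 2 Gy and is not independent evidence of its direction. It shares 51 genes with the joined lists, and of the 160 others 152 were lower, 107 of them in all 4 pairs, with 40 lower in DESeq2 and a median of -0.42.

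**Figure D3:**
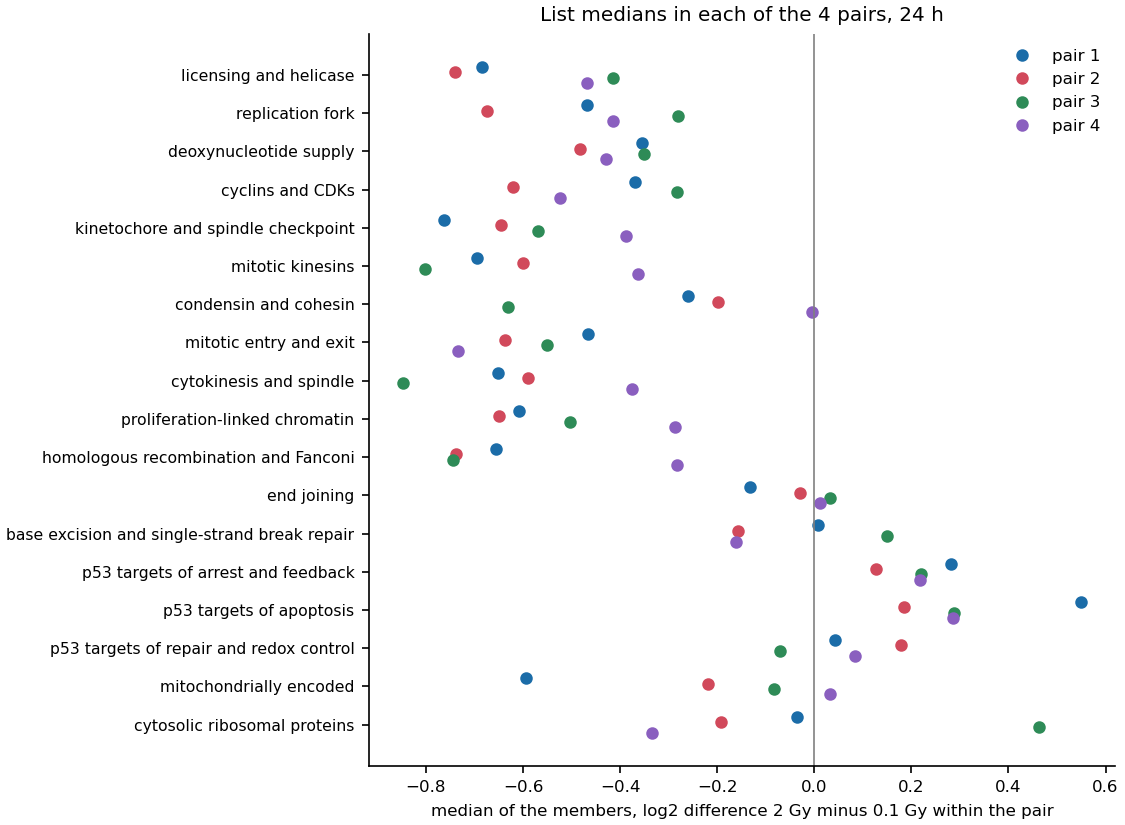
Median log2 difference of the members within each of the 4 pairs (x axis, points coloured by pair) for 18 lists. The replication, mitosis and recombination lists are below 0 in every pair, with pair 4 of condensin and cohesin at -0.00464, whereas the ribosomal list ranges from -0.33 in pair 4 to 0.46 in pair 3.

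Repair lists differed from each other. Homologous recombination copies the sister chromatid in S and G2 phase, and of 31 members of this list, with the Fanconi anemia genes, 29 were lower after 2 Gy, 20 in all 4 pairs and 21 at an unadjusted p under 0.05, with a median of -0.63. *Fignl1*, an ATPase of this route, was at 16.5, 16.2, 12.2 and 12.7 CPM after 0.1 Gy and at 8.62, 7.28, 6.63 and 7.95 CPM after 2 Gy. Its groups did not overlap, with a log2 difference of -0.91 ± 0.12. *Brca1*, a tumour suppressor of this route, and *Exo1*, which resects ends, differed by -0.76 ± 0.15 and -1.05 ± 0.17 and were lower in DESeq2, as were 6 members in all.

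The lists of end joining and base excision repair were centred near 0. Both routes work throughout the cycle, and the part of the cycle in the values of the repair lists was not tested. Of 13 end joining genes 7 were lower and 6 higher, with a median of -0.02, and only *Polq*, the polymerase of an alternative route of end joining, had an unadjusted p under 0.05 (-0.74 ± 0.23). *Xrcc6* (Ku70), which caps broken ends, was at 35.4 ± 2.59 CPM after 0.1 Gy and at 32.6 ± 6.31 CPM after 2 Gy (SD, n = 4). Of 16 base excision genes 8 were lower and 8 higher, with a median of 0.03. *Neil3*, a glycosylase of replicating cells, was the exception there, at 4.65, 5.10, 3.69 and 4.08 CPM against 1.57, 1.26, 2.63 and 2.81 CPM, without overlap and lower in DESeq2 (adjusted p = 0.025). *Parp1*, the sensor of strand breaks, differed by -0.11 ± 0.08.

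Of 18 genes of the damage checkpoint 13 were lower, 3 of them in all 4 pairs, and the median was -0.08. *Chek1*, the checkpoint kinase of S phase, was at 4.97, 7.29, 4.70 and 5.85 CPM after 0.1 Gy and at 3.35, 4.62, 2.40 and 4.52 CPM after 2 Gy, without overlap (-0.63 ± 0.15). *Topbp1*, which activates the kinase ATR, differed by -0.51 ± 0.16, with pair 3 at -1.16 and the others from -0.42 to -0.12. Neither was lower in DESeq2.

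Targets of p53 lay on the other side of 0. Of 18 targets of arrest and feedback 17 were higher after 2 Gy (51.4% of all tested genes were), 9 in all 4 pairs (6.83% of all tested genes) and 9 at an unadjusted p under 0.05, with a median of 0.17. Of 16 targets of apoptosis 15 were higher, 9 in all 4 pairs and 11 at an unadjusted p under 0.05, with a median of 0.31. Targets of repair and redox control were mixed, with 11 of 16 higher and a median of 0.06. No member of these lists passed the blocked edgeR fit, where the lowest adjusted p was 0.195, and *Dcxr* was the member called by DESeq2.

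*Cdkn1a* was at 299, 547, 374 and 349 CPM after 0.1 Gy and at 421, 593, 529 and 421 CPM after 2 Gy. It was higher in each pair, by 0.49, 0.12, 0.50 and 0.27 on the log2 scale, yet the 0.1 Gy library of replicate 2 exceeded all 2 Gy libraries but that of its own pair. The log2 difference was 0.34 ± 0.10 (edgeR adjusted p = 0.472). *Mdm2*, the ligase that degrades p53, was at 191, 260, 132 and 180 CPM against 230, 288, 119 and 225 CPM, so pair 3 had the other sign (0.15 ± 0.10).

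*Ccng1*, *Trp53inp1* and *Phlda3*, which feed back on p53 or AKT signalling, differed by 0.36 ± 0.10, 0.41 ± 0.13 and 0.35 ± 0.12. *Trp53inp1* had pairs at 0.57, 0.29, 0.00 and 0.76 and levels of 73.5 and 73.6 CPM in replicate 3 beside 129 to 291 CPM elsewhere. *Sesn2*, which lowers mTORC1 activity, was the member of its list without overlap, at 75.8, 99.7, 84.3 and 84.3 CPM after 0.1 Gy and at 108, 122, 101 and 101 CPM after 2 Gy. Groups that did not overlap and were higher after 2 Gy made up 0.256% of all tested genes.

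*Dcxr*, a carbonyl reductase in the apoptosis list, was at 30.9, 60.8, 31.7 and 35.0 CPM after 0.1 Gy and at 49.6, 81.0, 62.0 and 42.6 CPM after 2 Gy, a log2 difference of 0.59 ± 0.12 (DESeq2 adjusted p = 0.00972). *Pidd1* and *Ei24*, further p53 targets, differed by 0.37 ± 0.11 and 0.30 ± 0.09. *Perp*, a membrane protein of desmosomes, was at 35.0 and 45.1 CPM in replicate 2 and at 8.62 CPM or less in the other replicates, so its mean rests on replicate 2, although all 4 pairs were higher by 0.36 to 0.84. *Ephx1*, an epoxide hydrolase, was at 288, 368, 383 and 374 CPM against 386, 411, 609 and 410 CPM, without overlap (0.35 ± 0.11).

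**Figure D4:**
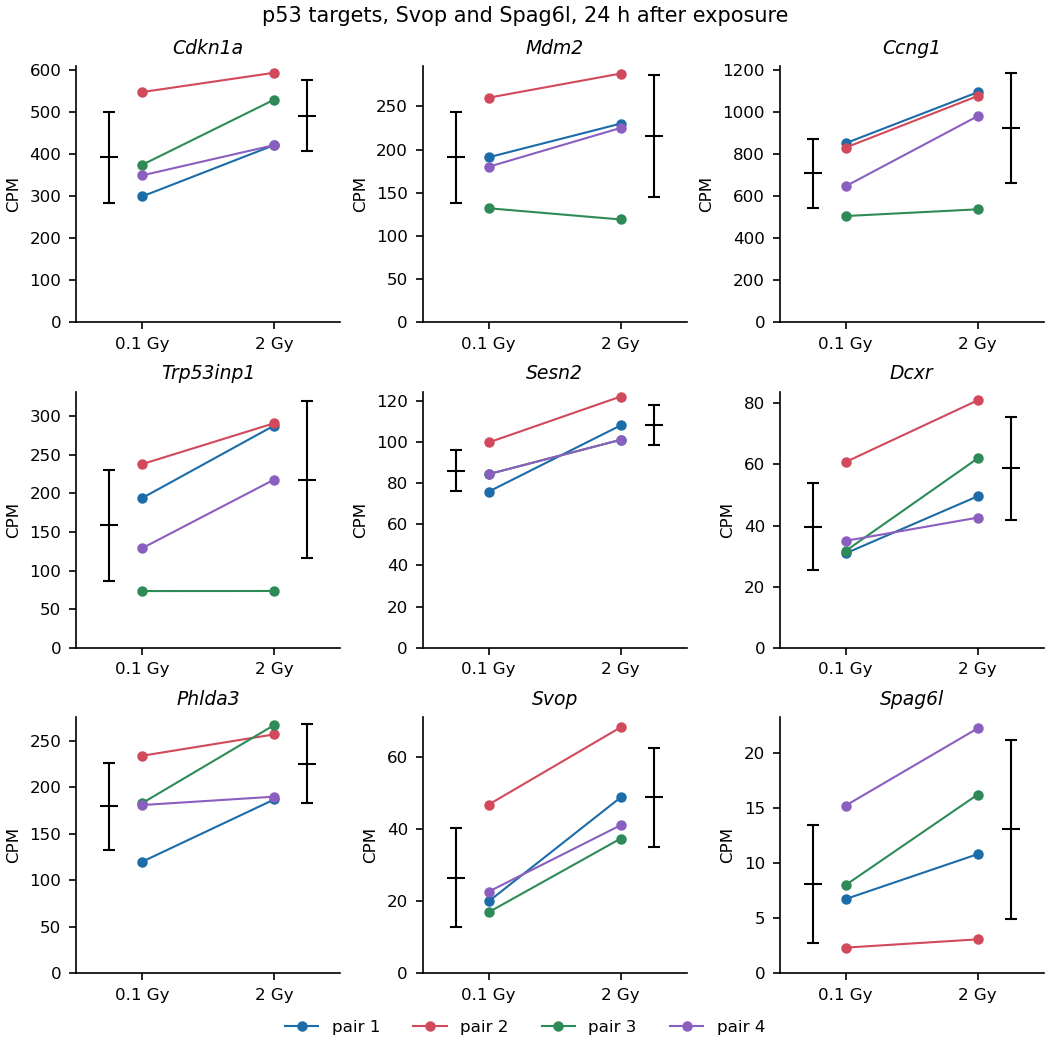
Level in CPM (y axis, from 0) after 0.1 Gy and 2 Gy of 7 p53 targets, *Svop* and *Spag6l*, 24 h after exposure. Lines join the libraries of a pair and the black bars are mean ± SD of 4 libraries. The lines go up in most pairs while the groups overlap, with *Mdm2* at 132 and 119 CPM in pair 3 and *Sesn2* as the panel without overlap.

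*Svop*, which encodes a membrane protein of synaptic vesicles related to SV2, had the smallest p of the genes that were higher after 2 Gy. It was at 19.9, 46.7, 16.9 and 22.6 CPM after 0.1 Gy and at 48.7, 68.1, 37.3 and 41.0 CPM after 2 Gy. Each pair was higher, by 1.29, 0.54, 1.14 and 0.86, and the groups overlapped through replicate 2 alone, which was high at both doses. The log2 difference was 0.95 ± 0.13 (edgeR adjusted p = 0.0709, DESeq2 adjusted p = 4.91e-07). *Usp30*, which overlaps *Svop* on the other strand, differed by 0.04 ± 0.08, and whether the counting used strand is not given in the sources used here. *Sv2a*, a relative on another chromosome, differed by -0.04 ± 0.11.

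Genes of astrocyte identity and reactivity differed little. None of the 11 tested astrocyte markers had an unadjusted p under 0.05, and their median was 0.05. *Gfap*, the intermediate filament protein of reactive astrocytes, was at 508, 538, 632 and 493 CPM after 0.1 Gy and at 520, 504, 795 and 513 CPM after 2 Gy, with the 2 Gy library of replicate 3 above the rest (0.08 ± 0.10). *Glul* (glutamine synthetase) differed by -0.14 ± 0.08. The medians of the pan-reactive, A1 and A2 lists were 0.00, 0.11 and -0.05, and 1 member of the pan-reactive list and 1 of the A1 list had an unadjusted p under 0.05.

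Those were *Serpina3n*, a protease inhibitor of reactive glia, which differed by 0.20 ± 0.08, and *Fkbp5*, a chaperone partner induced by glucocorticoids, which differed by -0.31 ± 0.10. Of 22 cytokines and NF-kB targets none had an unadjusted p under 0.05 (median 0.03). Of 18 interferon-stimulated genes 15 were higher, but only 2 in all 4 pairs, with a median of 0.09 and pair 3 at 0.40. *Ifi44*, an interferon-stimulated gene, was at 2.51 and 3.59 CPM in replicate 2, where microglial markers were lowest too, and at 17.7 to 44.5 CPM in the other libraries (0.24 ± 0.11). The part of microglia in that result was not tested.

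Among lists of stress and metabolism the medians were between -0.06 and 0.05. Among the few members at an unadjusted p under 0.05 were *Myc*, a growth regulator, at -0.32 ± 0.11 with no overlap, *Nsdhl*, an enzyme of cholesterol synthesis, at -0.28 ± 0.08, and *Mmp2*, a matrix protease, at 0.26 ± 0.10. Of the 18 genes of senescence and its secretory phenotype, 1 was lower in DESeq2, which was *Lmnb1*, and 11 were higher (median 0.05).

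Markers of other cell types were set beside these results. The 14 microglial markers had a median of -0.02, and *Csf1r*, the receptor that microglia depend on, was at 83.1 and 71.6 CPM in replicate 2 and at 489 to 667 CPM elsewhere (-0.11 ± 0.09). Of 16 neuron markers 8 passed the filter, and their summed level was higher after 2 Gy in all 4 pairs, from 475.6 to 659.6 CPM after 0.1 Gy and from 548.4 to 718.8 CPM after 2 Gy (exact permutation p = 0.4286, exact sign-flip p = 0.125 within pairs), and the part of this in the value of *Svop* was not tested. *Stmn2*, *Map2* and *Tubb3*, which encode proteins of the neuronal cytoskeleton, were at 189 to 321, 105 to 360 and 36.9 to 111 CPM over the 8 libraries. *Elavl3* and *Syp*, further neuron markers, were at 3.47 to 16.9 and 5.77 to 9.82 CPM. Neuron markers that did not pass the filter had at most 37 counts in any library. Of these, named after their values were seen, *Slc17a6* had at most 1 count, *Nefl* at most 6 and *Snap25* at most 14. Oligodendrocyte markers summed to 588.9 to 937.3 CPM against 514.6 to 939.3 CPM, and fibroblast and vessel markers to 5398.3 to 7149.5 CPM against 4465.3 to 8159.4 CPM. The former sum was led by *Olig1*, at 310 to 559 CPM against 251 to 563 CPM. *Acta2* led the latter, at 3389 to 5280 CPM against 3065 to 6311 CPM. Among members near 0, named after their values were seen, *Mog* had at most 7 counts, *Lum* at most 5 and *Cldn5* at most 2 in any library.

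Nuclear and mitochondrial RNAs had no call in the blocked edgeR fit. *Malat1*, a long RNA of the nucleus, was at 2357, 1963, 2487 and 2384 CPM after 0.1 Gy and at 2508, 4448, 3186 and 3995 CPM after 2 Gy. No library of 0.1 Gy reached those of 2 Gy, but pair 1 differed by 0.09 and pair 2 by 1.18, and the log2 difference was 0.59 ± 0.17 (DESeq2 adjusted p = 0.0287). *Neat1*, its neighbour, differed by 0.18 ± 0.11. Of 13 mitochondrially encoded genes 10 were lower after 2 Gy, with a median of -0.21 and pairs at -0.59, -0.22, -0.08 and 0.03. At 6 h 12 of the 13 were higher after 2 Gy, with a median of 0.41. The difference at 24 h minus that at 6 h had a median of -0.63 and was below 0 in 12 of them, 7 at an unadjusted p under 0.05 and none at an adjusted p under 0.05 in edgeR. At 24 h *mt-Nd4* and *mt-Nd1*, subunits of complex I, both differed by -0.29.

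Library measures that go with these RNAs had the same sign in every pair. The share of counts in mitochondrially encoded genes was from 1.47% to 2.57% after 0.1 Gy and from 0.947% to 2.18% after 2 Gy, lower in all 4 pairs (exact permutation p = 0.3714, exact sign-flip p = 0.125 within pairs). The share in the 10 highest genes was from 6.15% to 9.89% after 0.1 Gy and from 6.57% to 13% after 2 Gy, higher in all 4 pairs (exact permutation p = 0.2, exact sign-flip p = 0.125 within pairs). The smallest p is 0.02857 for 4 libraries against 4 and 0.125 within 4 pairs, where no measure can pass 0.05, and the part of these measures in the other results was not tested.

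Replication-dependent histone genes, expressed in S phase, did not follow the replication lists. Of 20 tested members 15 were higher after 2 Gy, 7 in all 4 pairs and 3 at an unadjusted p under 0.05, with a median of 0.23. Without replicate 2 the median was 0.14. *Hist1h1c*, *Hist1h2be* and *Hist1h3d* differed by 0.27 ± 0.10, 0.22 ± 0.09 and 0.45 ± 0.15. The canonical transcripts of these genes lack a poly(A) tail, the libraries were selected for poly(A), and near-identical copies share reads, so these values are uncertain.

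At 6 h the same doses were compared in 4 pairs of other libraries, to place the 24 h values in time. There 9 of 16278 genes passed an adjusted p of 0.05 in the blocked edgeR fit (0.0553%), all higher after 2 Gy, among them *Cdkn1a*, *Mdm2*, *Trp53inp1* and *Dcxr*. The other 5, named after their values were seen, were *Ano3*, *Celf5*, *Plcd4*, *Ddit4l* and 1700007K13Rik. The fit without the block called 0 genes at 6 h, and the blocked fit called 1, 9, 1 and 45 without replicates 1 to 4. At 24 h all 9 were higher after 2 Gy, 7 of them in all 4 pairs, with a median of 0.34 against 0.71 at 6 h, a value that chose them. The joined p53 lists had medians of 0.27 at 6 h and 0.16 at 24 h, and the joined replication, cycle and mitosis lists -0.19 and -0.53.

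The difference between the times was tested by an interaction of dose and time on 16 libraries with the pairs as blocks. Of 17067 genes 0 passed an adjusted p of 0.05 in edgeR, while 443 had an unadjusted p under 0.05 (2.6%), 251 with a lower value at 24 h (1.47%) and 192 with a higher one (1.12%). DESeq2 called 2 and limma voom 0. Of the 211 genes of the replication, cycle and mitosis lists, 197 had a lower value at 24 h, 85 of them at an unadjusted p under 0.05. Of the 46 p53 targets 32 had a lower value at 24 h, 5 of them at an unadjusted p under 0.05.

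*Rrm2* was among the genes with the smallest p-values of the interaction. At 6 h it was at 67.5, 131, 107 and 71.5 CPM after 0.1 Gy and at 83.5, 135, 80.5 and 60.8 CPM after 2 Gy, higher in 2 pairs and lower in 2. Its difference at 24 h minus that at 6 h was -0.78 ± 0.14 on the log2 scale (edgeR adjusted p = 0.828). The interactions of *Melk*, *Exo1* and *Ndc80* were -0.79 ± 0.15, -1.0 ± 0.21 and -0.66 ± 0.14.

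For *Mdm2* the interaction was -0.37 ± 0.12 and had an unadjusted p under 0.05, since it was higher after 2 Gy in all 4 pairs at 6 h, at 157, 224, 155 and 140 CPM against 227, 306, 209 and 225 CPM. For *Cdkn1a* it was -0.25 ± 0.14 and for *Svop* 0.10 ± 0.25. On the other side, *Spag6l*, a gene of the ciliary axoneme, and *Slc24a4*, a sodium, calcium and potassium exchanger, had interactions of 0.70 ± 0.20 and 0.78 ± 0.22. At 6 h *Spag6l* was at 6.47, 3.90, 7.89 and 8.85 CPM after 0.1 Gy and at 4.87, 4.62, 7.41 and 10.4 CPM after 2 Gy, and at 24 h its 4 pairs were higher by 0.39 to 1.01. Others of this side were the low genes 1700034P13Rik, 3110021N24Rik and Gm29260, at under 3 CPM in each mean.

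**Figure D5:**
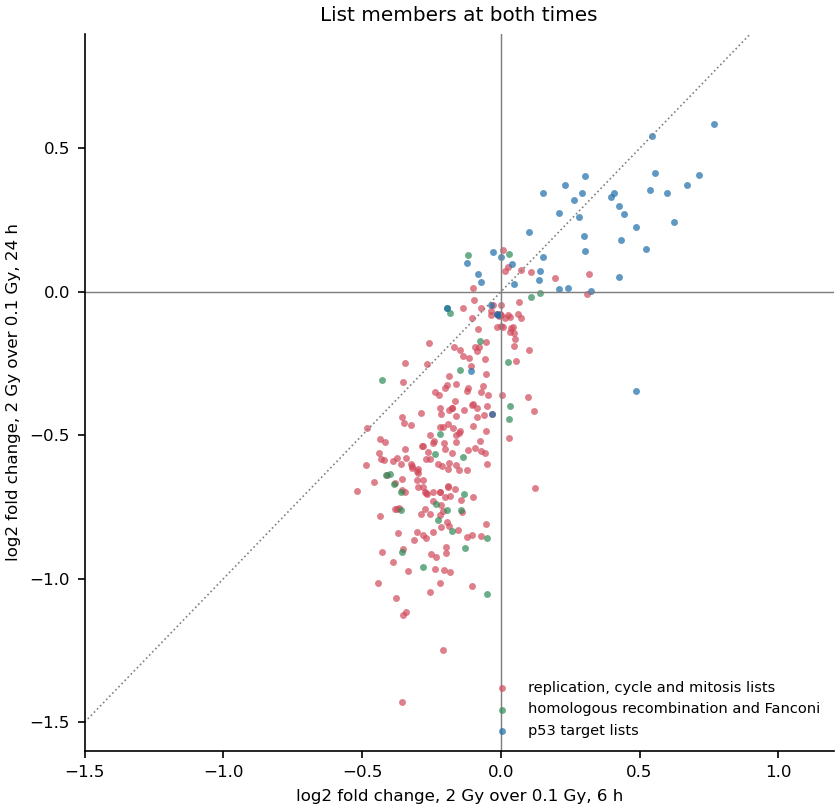
Log2 difference of 2 Gy over 0.1 Gy at 6 h (x axis) and 24 h (y axis) for members of the replication, cycle and mitosis lists, the recombination list and the p53 lists. On the dotted line both times are equal. Most replication, cycle and mitosis members lie below it, with medians of -0.19 at 6 h and -0.53 at 24 h, and the p53 targets lie mostly in the upper right, with medians of 0.27 and 0.16.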

How the data were processed

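RNA of primary astrocytes was sequenced, and the table deposited for each library holds raw counts per gene, which the authors neither normalized nor pooled. The submitters' processing notes name the genome build mm10, and 49056 of 49315 identifiers are in GENCODE M21. The aligner, the counting tool and the use of strand are not given in the sources used here. Groups, times and replicate numbers were taken from the labels, which call the replicates biological, and the paper's discussion describes a new isolation for each experiment. Which isolation each library came from is not given in the sources used here, so p-values measure the spread between these libraries.

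Counts were analysed with edgeR 4.0.16 in R 4.3.3, using filterByExpr, TMM and the quasi-likelihood test (legacy form) with the replicate number as a block, and p-values were adjusted by the Benjamini-Hochberg method over all tested genes. A call needs an adjusted p under 0.05. The standard error of a log2 difference was taken as its absolute value divided by the square root of the quasi-likelihood F statistic. CPM of single libraries are after TMM, and within-pair log2 values used a prior count of 2. Deviations of same-numbered libraries from their group means correlated across genes at 0.669, 0.923, 0.807 and 0.657 in replicates 1 to 4, and each library matched its own number best, so the numbers were taken to pair the libraries. Libraries of a group always differed by more than sampling noise. The interaction used 16 libraries with 8 blocks. For library measures the exact permutation test was two-sided and used 70 divisions. The total count per library (14742855 to 37039966) sets the counting error. The standard errors of log2 differences hold this error together with the spread between these libraries, and they cover no spread beyond these libraries.

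The comparison, its lists and its tests were chosen with earlier results of these data known. The 46 lists hold 719 genes and were written by hand from general knowledge, except for the genes the paper lists or measured by RT-qPCR. Genes are named where they have the 5 highest mean levels or the 3 smallest p-values of a list, where the paper names them, or where they have the 5 smallest p-values in a direction of the interaction. Of each list the few that describe it are printed, names outside the rule are marked as such, and *Usp30* is named for its overlap with *Svop*. Alternatives were the fit without the block, DESeq2 1.42.0, limma 3.58.1 (voom), edgeR's newer quasi-likelihood method, other scalings and filters, GC content and gene size as offsets (splines with 5 degrees of freedom), 16 libraries, and each replicate left out. The scripts were tested on simulated counts. The mock-irradiated libraries were not used here, and results on some genes are not reported here.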

Additional observations from a re-analysis of the deposited data

Results flagged for a closer look

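In groups of 4 libraries, the highest or lowest library was set against the group's range, for the levels of the 100 named genes and for the library measures. A total of 24 of 226 groups had a library that stood apart by Dixon's 95% criterion. Chance alone gives about 1 in 20 for independent groups. These groups share the same libraries, and some genes were named after their values were seen, so the count cannot show an excess over chance.

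Replicate 2 was the high library in many of them. It was the highest for *Cdc6* (11 CPM) after 0.1 Gy, for *Rrm2* (98.2 CPM after 0.1 Gy and 54.3 CPM after 2 Gy), for *Lmnb1* (28.8 CPM) after 2 Gy, for *Dcxr* (60.8 CPM) after 0.1 Gy, for *Perp* (35.0 and 45.1 CPM), for *Ei24* (262 CPM) after 2 Gy and for the summed neuron markers after 2 Gy (718.8 CPM). Genes named after their values were seen and high there were *Celf5* (47.2 and 62.0 CPM), the creatine kinase gene *Ckmt1* (18.3 and 22.8 CPM) and the sulfatase gene *Sulf2* (383 CPM) after 0.1 Gy. The microglial gene *Aif1* was lowest in replicate 2, at 3.28 CPM after 0.1 Gy.

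The 2 Gy library of replicate 3 was lowest for *Tfdp1* (65.8 CPM), *Kif11* (5.78 CPM) and *Rad21* (85.8 CPM) and highest for *Ephx1* (609 CPM), *Gfap* (795 CPM) and the share of counts in ribosomal protein genes (2.68%, beside 1.11% to 1.35% in the other 3). *Ephx1* was also lowest in the 0.1 Gy library of replicate 1 (288 CPM). *Melk* was lowest in the 2 Gy library of replicate 1 (3.42 CPM), and *Hist1h2be* was highest in the 2 Gy library of replicate 4 (44.8 CPM).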

How the results depend on the processing

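The count of genes called between the doses at 24 h was 0 in the blocked edgeR fit and also 0 without the replicate block, with limma voom, with edgeR's newer quasi-likelihood method, with DESeq2's size factors, and with at least 10 counts in every library. It was 109 with DESeq2, 41 with library size alone, 237 without a filter on low counts, 104 with the correction for GC content and length, and 110 on 16 libraries, and it ranged from 0 to 161 when a replicate was left out. Lower after 2 Gy were 104 of 109, 40 of 41, 203 of 237, 98 of 104 and 104 of 110 calls of these 5 settings. Chosen after the data were seen were DESeq2 without the block (48), the GC and length correction without the block (0), 16 libraries with the GC and length correction (209), DESeq2 without replicates 1 to 4 (19, 10, 184 and 77) and the GC and length correction without replicates 1 to 4 (0, 1, 522 and 72). Among the fits that left out a replicate, each of these 3 models had its highest count (161, 184 and 522) without replicate 3, and the cause was not tested. The joined gene lists had 0 called members in the blocked fit, 96 with DESeq2, 40 with library size alone, 164 without the filter, 91 with the GC and length correction and 95 on 16 libraries, and from 0 to 102 when a replicate was left out. The interaction of dose and time had 0 called genes, 2 with DESeq2 and 33 without the filter, and 0 in its other settings, the fit without the replicate block among them. At 6 h, where all alternatives were chosen after the data were seen, the count of 9 became 0 without the replicate block, 52 with DESeq2, 1 at an adjusted p under 0.01 and 2 with a minimum of 1 on the log2 scale, and ranged from 1 to 45 when a replicate was left out.

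None of the 100 named genes was called in the blocked edgeR fit at 24 h, so none could lose a call. Of them 45 passed with DESeq2, 29 with library size alone, 53 without the filter, 46 with the GC and length correction, 44 on 16 libraries, 43 without replicate 3 and 27 without replicate 4. In these and the other settings run for single genes, the sign turned without replicate 3 for *Sv2a*, *Gfap*, *Stmn2* and *Usp30*, without replicate 4 for *Map2* and *Tubb3*, without the block for *Tubb3* (0.0421), and with library size alone for *Usp30* (-0.0149). With a replicate left out, *Sv2a* ranged from -0.135 to 0.0397, *Gfap* from -0.0021 to 0.133, *Stmn2* from -0.0326 to 0.128, *Map2* from -0.0177 to 0.282, *Tubb3* from -0.118 to 0.133 and *Usp30* from -0.0043 to 0.0818. The sign-flip test of the library measures within pairs was chosen after the data were seen. List medians moved by more than the SD between pairs in 5 cases, which were the A2 list with library size alone (-0.10) and without replicate 4 (0.00), the neural progenitor list without replicate 3 (-0.0038), the oligodendrocyte list with at least 10 counts (-0.05) and the histones without replicate 2 (0.14). The comparison of promoter motifs between lists and its window of 100 bases were not run, since too few genes had a promoter in the table. At this depth 8 of 16 neuron markers did not pass the filter on low counts, so their differences were not tested.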

Other observations

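Genes of the ciliary axoneme, picked by their symbols (Cfap, Dnah, Drc, Rsph and Spef) after their values were seen, were mostly higher after 2 Gy at 24 h. Of 51 tested genes of this kind 46 were higher, beside 51.4% of all tested genes, 14 of them in all 4 pairs and 12 at an unadjusted p under 0.05, with a median of 0.27 on the log2 scale. The pairs had medians of 0.15, 0.00, 0.35 and 0.31, so that pair 2 had no difference in the median, and the median at 6 h was 0.03. *Drc7*, which encodes a regulator of dynein in motile cilia, was at 13, 6.05, 17.7 and 27.9 CPM after 0.1 Gy and at 18.7, 7.66, 24.5 and 35.4 CPM after 2 Gy. Each pair was higher (0.42 ± 0.10), and the range between replicates was wider than the difference between doses. As the genes were picked after their values were seen, no test of the set is given, and these counts only describe it.

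Further genes that were higher after 2 Gy in all 4 pairs, named after their values were seen, were *Ckmt1*, a mitochondrial creatine kinase, at 0.68 ± 0.15, *Sulf2*, an enzyme that edits heparan sulfate, at 0.36 ± 0.08, and *Dglucy*, which takes part in D-glutamate metabolism, at 0.40 ± 0.08. *Dglucy* had groups that did not overlap, at 61.8, 74.7, 57.9 and 63.7 CPM after 0.1 Gy and at 81.2, 93.8, 84.5 and 79.7 CPM after 2 Gy. It was called on 16 libraries (edgeR adjusted p = 0.0362) and in the GC-corrected fit (edgeR adjusted p = 0.0464), and not by DESeq2 (adjusted p = 0.0791).

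The log2 differences of the pairs correlated across genes at between -0.306 and 0.371. Their correlation with GC content across genes was 0.201, -0.0496, 0.274 and -0.255 in pairs 1 to 4, and genes are not independent replicates.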
